A study of Mus musculus with 2 samples.

Results

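Basal keratinocytes are the cells of a stratified epithelium that sit on the basement membrane. Here they were chosen from single-cell RNA sequencing of mouse periodontal tissue by their keratin transcripts, and 201 of the 1819 cells kept were members, 66 in a library of diseased tissue (LIP, for ligature-induced periodontitis) and 135 in a control library. A cell was a member when *Krt5*, *Krt14*, *Krt15*, *Krt13*, *Krt4*, *Krt76*, *Krtdap* and *Sbsn* together made up at least 1% of its unique molecular identifiers (UMIs), when *Krt5*, *Krt14* and *Krt15* summed to more than the other 5 genes, and when *Mki67* and *Top2a*, which mark dividing cells, had at most 1 UMI between them. A UMI stands for 1 captured transcript, and in this assay only the 3′ end of a transcript is read, so that levels do not grow with gene length. All mice were wild-type C57BL/6 aged 8 weeks. The LIP library pooled cells of the gingiva and the alveolar bone surface from 5 mice 7 days after a ligature was placed around a tooth, and the control library pooled the same tissue from 5 untreated mice. With 1 library per condition, no difference between the conditions could be tested over animals, and every interval given covers counting error only.

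The gingiva is lined by a stratified epithelium whose basal cells hold the keratins 5 and 14 and the transcription factor p63 and anchor to the basement membrane through hemidesmosomes. They give rise to suprabasal layers, which can make keratins 4, 13 or 76 and the cornified envelope, not all of them in every part of the epithelium. Where the gum meets the tooth it forms a thinner, poorly differentiated junctional epithelium, which is known to secrete ODAM and the follicular dendritic cell secreted protein FDC-SP. Keratinocytes of inflamed gingiva are also known as a source of chemokines that call in neutrophils, of antimicrobial proteins and of the keratins 6, 16 and 17.

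The sequence before the start of 4 genes with some of the highest LIP over control ratios is shown because the values below turn on them. Each sequence is the 250 bases before the RefSeq gene start in GRCm38.p6, on the strand of the gene, 5′ to 3′. *Odam* (chr5:87884760-87885009) and *BC037156* (chr5:87908529-87908778), which RefSeq lists as FDC-SP, lie in that order on the plus strand of chromosome 5, with a gap of 14.6 kb between the 2 gene bodies. *Cxcl3* (chr5:90785851-90786100) encodes a chemokine for neutrophils, and *Sprr2d* (chr3:92338890-92339139) a small proline-rich protein of the cornified envelope. Capitals mark an AP-1 motif (TGANTCA), an NF-kB motif (GGGAN followed directly by TTTCC), a C/EBP motif (TTGCNNAA) or a TATA box (TATAAA), each searched on both strands, and no 2 of the marked matches overlap.
Odam: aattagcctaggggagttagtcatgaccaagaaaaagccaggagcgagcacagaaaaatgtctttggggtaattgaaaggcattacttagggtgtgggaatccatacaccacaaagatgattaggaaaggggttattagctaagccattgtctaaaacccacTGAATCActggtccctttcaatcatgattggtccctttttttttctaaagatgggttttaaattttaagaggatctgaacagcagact
BC037156: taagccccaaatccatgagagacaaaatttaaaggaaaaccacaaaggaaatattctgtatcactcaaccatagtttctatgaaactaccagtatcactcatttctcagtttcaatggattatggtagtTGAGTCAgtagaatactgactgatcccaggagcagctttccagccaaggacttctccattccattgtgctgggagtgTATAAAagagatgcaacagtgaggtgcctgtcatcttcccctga
Cxcl3: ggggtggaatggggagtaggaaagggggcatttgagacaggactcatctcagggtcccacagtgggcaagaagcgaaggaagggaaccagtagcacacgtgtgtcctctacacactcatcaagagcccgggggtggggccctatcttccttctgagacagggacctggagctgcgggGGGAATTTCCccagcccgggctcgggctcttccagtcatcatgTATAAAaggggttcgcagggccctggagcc
Sprr2d: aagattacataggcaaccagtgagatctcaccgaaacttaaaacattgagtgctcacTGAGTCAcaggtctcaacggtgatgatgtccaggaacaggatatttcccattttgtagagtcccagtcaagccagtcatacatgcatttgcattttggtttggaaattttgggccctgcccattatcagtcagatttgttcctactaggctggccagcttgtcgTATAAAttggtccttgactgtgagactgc

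Of 32851 such windows in the RefSeq table, 6.75% held the AP-1 letters, 0.356% the NF-kB letters, 9.56% the C/EBP letters and 12.4% the TATA letters. Among the 12 genes with the highest LIP over control ratio (below), 11 had a window. The AP-1 letters were found for *AA467197*, *BC037156*, *Odam*, *Ppbp*, *Sprr1a* and *Sprr2d*, the NF-kB letters for *Cxcl1* and *Cxcl3*, the TATA letters for *BC037156*, *Cxcl3*, *Ppbp*, *Sprr1a* and *Sprr2d*, and the C/EBP letters for none of the 11. Among the 12 genes with the lowest ratio, 6 had a window, the AP-1 letters were found for *Krt13*, the C/EBP letters for *Sptssb*, and the NF-kB and TATA letters for none. These are matches of letters in a window and not binding sites.

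The members' own keratins set the scale. Levels are counts per 1000000 UMIs summed over the members of a library (CPM), with exact Poisson intervals, and the members held 1471387 UMIs in LIP and 3548342 in control. *Krt14* (ENSMUSG00000045545) was at 18033 CPM (17817–18252) in LIP and at 17112 (16977–17249) in control, and it was found in every member of both libraries. *Krt5* (ENSMUSG00000061527), its type II partner, was at 5874 (5751–5999) and 6432 (6349–6516) CPM. *Krt15* (ENSMUSG00000054146), a keratin of resting basal cells, was at 502 (466–539) and 1075 (1041–1109) CPM. It was detected in 57.6% of LIP and 69.6% of control members. These 3 genes chose the members, so their levels are a description.

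*Trp63* (ENSMUSG00000022510), which encodes p63 and was not used to choose the cells, was at 417 CPM (384–451) in LIP and 353 (333–373) in control. It was found in 77.3% and 89.6% of members, against 1.15% and 4.62% of the endothelial cells of the same libraries. Thinned to 2000 UMIs per cell, it was found in 56.1% of 57 LIP members and 50.4% of 127 control members. *Col17a1*, the collagen of hemidesmosomes, was at 808 (763–855) and 791 (762–821) CPM and was likewise near 0 in endothelial cells, at 3.03 and 11.5 CPM. These 2 genes outside the rule thus set the members of both libraries apart from endothelial cells. That comparison does not separate basal from suprabasal cells. In the LIP members with an *Odam* UMI, described below, both genes were found in a smaller share of cells.

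The members were 7.05% (5.50–8.88) of the kept cells in LIP and 15.3% (13.0–17.8) in control, with exact binomial intervals. Neutrophils, by the marker rule used here, were 41.2% and 6.46% of the kept cells, so that a lower share of one type and a higher share of another cannot be told apart. Among keratinocytes alone, the members were 66 of 102 (64.7%, 54.6–73.9) in LIP and 135 of 238 (56.7%, 50.2–63.1) in control, and these intervals overlap. Median depth was close, at 23950 UMIs and 4538 genes per LIP member and 26982 UMIs and 4766 genes per control member. Depth ran from 524 to 58661 UMIs in LIP and from 577 to 58173 in control. No barcode that occurs in both libraries belonged to a member, although 2 barcodes of the whole series did occur in both.

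A share of the members lay near the keratin limit of the rule, and a minimum of 2% would have left out 27 of the 66 LIP and 28 of the 135 control members. The 3 members with the lowest keratin share had from 1.09% to 1.21% of their UMIs in the 8 genes in LIP and from 1.01% to 1.18% in control. The 3 nearest cells left out had from 0.956% to 0.987% and from 0.690% to 0.982%. On the balance of basal and suprabasal genes, the lowest member had 50.6% of these UMIs in the basal genes in LIP and 53.5% in control, and the nearest cell left out 40.7% and 48.4%. The median member had 97.9% and 94.4%. One UMI of *Mki67* or *Top2a* was present in 7 LIP and 23 control members.

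Most genes of the members differed by less than 2-fold between the libraries. Of 7736 genes with at least 50 UMIs over both libraries, 185 (2.39%) were at least 2-fold higher in LIP and 153 (1.98%) at least 2-fold lower, and the median log2 ratio was −0.03. Of the 185, 85 had so few control UMIs that at the control level in both libraries they would have missed the minimum of 50, and 87 of the 153 would have missed it at the LIP level. Such genes could be measured only because they differed, and below they are called measured only through 1 library. Of the 15 most abundant genes of each library, leaving out mitochondrial and ribosomal protein genes, 12 were shared. *Eef1a1* (a translation factor) was at 9251 CPM in LIP and 10193 in control, *Tpt1* at 6135 and 6453, *Malat1* at 6569 and 6784, *Fabp5* (a fatty acid-binding protein of keratinocytes) at 4087 and 3828, *S100a6* at 5886 and 4394 and *Lgals7*, the galectin of stratified epithelia, at 3804 and 6518. *BC037156*, *Mt1* and *Fth1* were among the 15 in LIP only and *Mt4*, *Krt6a* and *Rack1* in control only. *BC037156*, at 18856 CPM, ranked first in LIP, above *Krt14*.

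**Figure D1:**
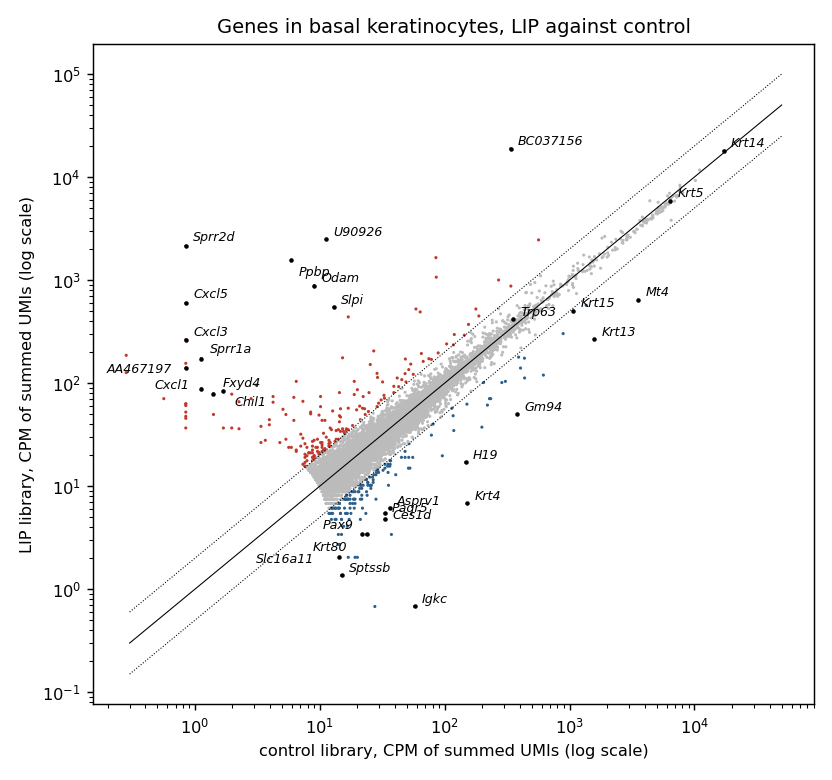
Each point is 1 of the 7736 genes with at least 50 UMIs in basal keratinocytes, with CPM in the control library on the x axis and in the LIP library on the y axis, both log scales, the solid line at equality and dotted lines at 2-fold. Genes with 0 UMIs in a library are drawn at 3 counts, red and blue points are at least 2-fold higher or lower in LIP, and *Sprr2d* and *Cxcl5* lie farthest above the line among the labelled genes while *Igkc* and *Krt4* lie farthest below.

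The 12 genes with the highest ratio, among those found in at least 10% of the members of the library where they were higher, were *Sprr2d*, *Cxcl5*, *Cxcl3*, *Ppbp*, *U90926*, *AA467197*, *Sprr1a*, *Odam*, *Cxcl1*, *Fxyd4*, *BC037156* and *Chil1*. Among them were 4 chemokine genes of the CXC family, which lie within 134 kb on chromosome 5 (chr5:90759360-90893115), 2 small proline-rich proteins of the cornified envelope, and the secreted proteins ODAM and FDC-SP. Leaving out *Odam* itself, all 11 others had at least 90% of their LIP UMIs in the 20 members that carried *Odam*, and in 8 of the 11 the highest cell was the one with the most *Odam*. In 9 of the 12, at least 50% of the LIP UMIs came from 1 cell. Over all 185 genes higher in LIP, the median share of LIP UMIs in the *Odam*-bearing cells was 65.0%, against 22.5% over all 7736 genes. At least 50% lay there for 113 of the 185, against 311 of all 7736 genes. The ratios below are therefore those of few cells. With these cells left out of both libraries, 83 of 7411 genes (1.12%) were at least 2-fold higher in LIP and 193 (2.60%) lower.

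*Odam* (ENSMUSG00000009580, chr5:87885029-87894174) had 1301 UMIs in LIP and 32 in control, at 884 (837–934) and 9.02 (6.17–12.7) CPM. The log2 ratio was 6.62 (6.11–7.17). It was found in 20 of 66 LIP members (30.3%, 19.6–42.9) and in 4 of 135 control members (2.96%, 0.813–7.41). After thinning to 2000 UMIs it was found in 21.1% and 0.787% of members and in 0 of 80 LIP endothelial cells. Before thinning 3 of 87 LIP endothelial cells had a UMI of it, so the 0 sets no limit on the share that expresses it. The cell with the most *Odam* held 515 UMIs of it and the next 381, whereas 6 of the 20 cells had a single UMI. In control the highest cell held 24 of the 32 UMIs.

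*BC037156* (ENSMUSG00000105888, chr5:87908779-87914171), annotated as a lincRNA by GENCODE, had 27745 UMIs in LIP and 1196 in control, at 18856 and 337 CPM. The log2 ratio was 5.81 (5.72–5.89), but 1 control cell held 986 of the 1196 control UMIs. With no *Mki67* or *Top2a* UMI allowed the ratio was 8.23, and without the cells with *H19* 7.96. With every cell weighing the same it was 4.48, without the 2 LIP cells with the most *Odam* 3.65 and without all *Odam*-bearing cells 2.82. *BC037156* made up at least 1% of the UMIs of 16 LIP members, 2 of which had no *Odam* UMI, and of 3 control members. In the 2 LIP cells with the most *Odam* it was 25.9% and 13.6% of all UMIs. The members with no *Odam* UMI had 166 CPM in LIP (143–192), against 63.6 CPM in LIP endothelial cells, where it was found in 40.2% of cells, and 0 UMIs in control endothelial cells. A low level of this transcript was thus present in LIP cells that are not keratinocytes, and its part in the detection among members was not tested.

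The chemokines followed these cells. *Cxcl5* (ENSMUSG00000029371), a ligand of the neutrophil receptor CXCR2, had 879 UMIs in 12 LIP members and 3 in 2 control members. Its levels were 597 (559–638) and 0.845 (0.174–2.47) CPM and its log2 ratio 9.46 (7.91–11.75). *Ppbp*, another chemokine of the same cluster, was at 1562 (1499–1627) and 5.92 (3.66–9.05) CPM. One LIP cell held 632 of the *Cxcl5* UMIs and 2083 of the 2298 *Ppbp* UMIs. *Cxcl3* had 389 UMIs in LIP and none in control, so that it was at least 313-fold higher against a floor of 3 counts in control, and the same cell held 337 of them. *Cxcl1* was at 88.4 (73.8–105) and 1.13 (0.307–2.89) CPM, with 79 of its 130 LIP UMIs in a different *Odam*-bearing cell. *Cxcl1* was also present in LIP endothelial cells, at 32.3 CPM, whereas *Cxcl5* was at 1.01 and *Ppbp* at 2.02 CPM there. In the LIP neutrophils, *Cxcl5* and *Ppbp* were at 5.17 and 8.93 CPM but *Cxcl3* was at 1371.

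**Figure D2:**
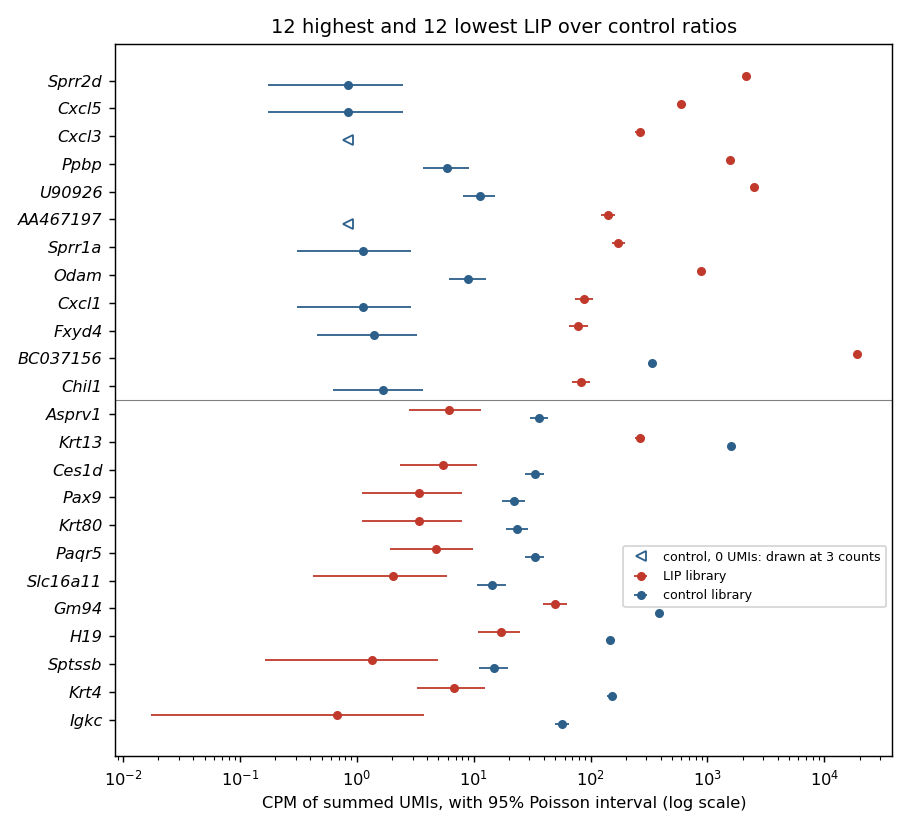
CPM of summed UMIs on a log x axis, with 95% Poisson intervals, for the 24 genes at both ends of the LIP over control ratio in basal keratinocytes (66 LIP and 135 control cells). *Cxcl3* and *AA467197* had no UMI in control and are drawn at 3 counts (0.845 CPM). The intervals cover counting error only. Those of the 2 libraries do not overlap for any of the 24 genes, which were chosen for the size of this ratio, so that this is no test.

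*Sprr2d* and *Sprr1a* were of the same kind. *Sprr2d* (ENSMUSG00000042212) was at 2144 (2070–2220) CPM in LIP, from 3155 UMIs, and at 0.845 (0.174–2.47) in control, from 3. Of its LIP UMIs, 86.9% were in 1 cell and 13.0% in the other *Odam*-bearing cells. *Sprr1a* was at 173 (153–196) and 1.13 (0.307–2.89) CPM, and its UMIs were spread more widely, with 39.6% in the highest cell. *U90926* was at 2496 (2416–2578) and 11.3 (8.05–15.3) CPM. It was found in 15 of the 20 *Odam*-bearing cells and in 4 of the other 46. *AA467197* had 207 UMIs in LIP and none in control and was at least 166-fold higher, and LIP neutrophils had it at 550 CPM. *Chil1*, a chitinase-like protein, had 108 of its 123 LIP UMIs in 1 cell, and *Fxyd4*, of a family that regulates the sodium pump, 57 of 116. Of the 12 genes, only *U90926* and *BC037156* had 50 UMIs left once the *Odam*-bearing cells were set aside.

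The *Odam*-bearing cells were not a uniform group. They held 24.5% of the UMIs of the LIP members and had a median of 7542 UMIs, against 25356 in the 46 others, and 9 of the 20 had under 5000 UMIs, against 5 of the 46. Yet 2 of them had over 50000, and these were the 2 with the most *Odam*. The group was set after the values had been seen, so the values that follow are a description. *Krt14*, of the rule, was at 22614 CPM in the *Odam*-bearing and 16550 in the other LIP cells and *Krt5*, also of the rule, at 6390 and 5707. *Trp63* was found in 9 of 20 and 42 of 46 cells and *Col17a1* in 9 and 40, with levels of 308 and 452 CPM and of 547 and 893 CPM. These shares follow depth in part, and among cells with at least 5000 UMIs *Trp63* was found in 8 of 11 and 41 of 41 and *Col17a1* in 8 of 11 and 40 of 41. The 2 cells with the most *Odam* held 31.3% of the UMIs of the *Odam*-bearing cells but 7 of their 111 *Trp63* and 2 of their 197 *Col17a1* UMIs. The other 18 were at 420 and 788 CPM. Among the 18, the cells with 44687, 29372 and 20077 UMIs had a single *Odam* UMI each. Their *Trp63* was at 559, 579 and 946 CPM, so the *Trp63* level of the 18 rests in part on them.

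Other keratins differed between them, of which *Krt15* and *Krt13* also belong to the rule. *Krt15* had 9 UMIs in all 20 *Odam*-bearing cells, at 25 CPM (11.4–47.5), against 656 (609–705) in the other LIP cells. Of the 9, 6 and 2 were in 2 cells with a single *Odam* UMI each. *Krt13*, of the suprabasal mucosa, was at 11.1 CPM against 347, and *Mt4*, the metallothionein of stratified epithelia, at 13.9 against 842. Each was found in 1 of the 20 cells, which had a single *Odam* UMI. The keratins of stressed epithelium lay the other way. *Krt16* was at 2720 CPM (2552–2896) against 124 (104–147), *Krt6b* at 3526 against 184 and *Krt17* at 3864 against 1062. Single *Odam*-bearing cells held much of these, with 777 of the 1473 *Krt6b* UMIs of all LIP members in 1 cell and 522 of the 1117 *Krt16* UMIs in 1 cell. *Anxa1*, an inhibitor of phospholipase A2, was at 8587 against 468 CPM and was found in every LIP member. The cell with the most *Odam* held 1771 of its 3611 LIP UMIs.

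*H19*, *Pax9*, *Barx2* and *Gm94* had no UMI in the *Odam*-bearing LIP cells, where 0 UMIs allow up to 8.33 CPM at 3 counts. *Pax9* was at 4.50 CPM in the other LIP cells, under that limit, so that its 0 separates nothing. Genes of neutrophils were mixed in these cells. *S100a8* and *S100a9*, the subunits of calprotectin, were at 3148 and 6190 CPM and *Slpi*, a protease inhibitor, at 2170. The cell with the most *Odam* held 53.2% of the *S100a9* and 74.9% of the *Slpi* UMIs of all LIP members. *Il1b* was at 8.33, *Csf3r* at 5.56, *Retnlg* at 2.78 and *Ptprc* at 0 CPM, whereas LIP neutrophils had 7876 CPM of *Il1b*, 972 of *Csf3r* and 6053 of *Retnlg*. *S100a8* and *S100a9* are themselves among the neutrophil markers used here. *Il1b*, *Csf3r*, *Retnlg* and *Ptprc* were named after their values were seen. Whether RNA of neutrophils was present in these cells was not tested.

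**Figure D3:**
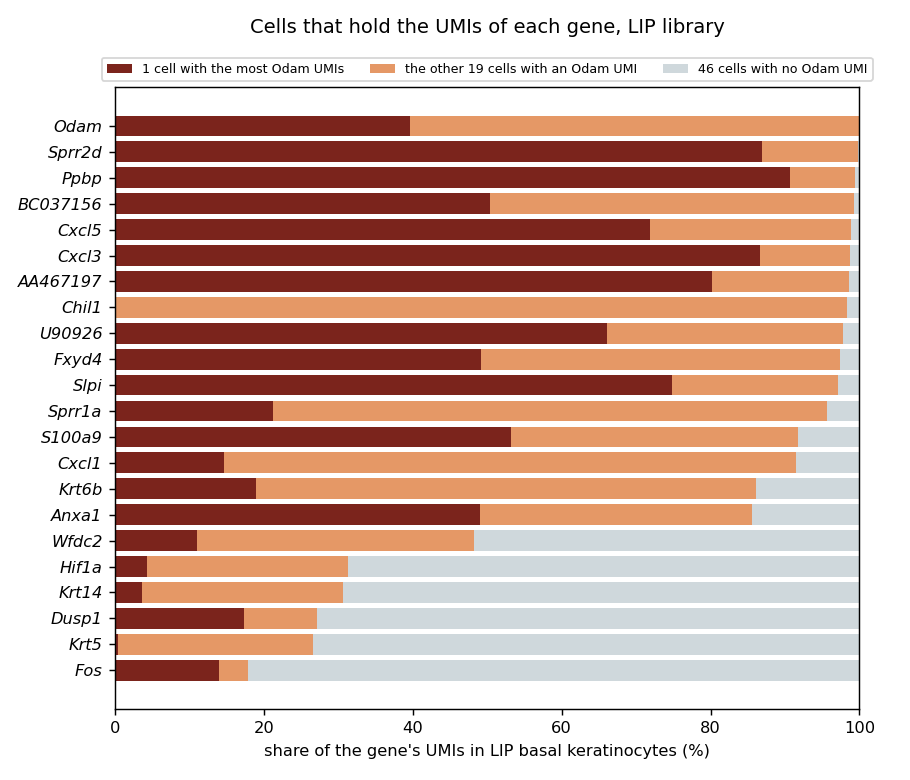
For each gene, the share of its UMIs in the 66 LIP basal keratinocytes that was held by the 1 cell with the most *Odam* UMIs (dark), by the other 19 cells with an *Odam* UMI (light orange) and by the 46 cells without (grey). The 12 genes with the highest ratio have at least 91.5% of their UMIs in *Odam*-bearing cells, and *Fos*, *Krt5*, *Dusp1*, *Krt14* and *Hif1a* have at most 31.3% there.

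*Odam* was also found in other classes of LIP cells. In LIP, 5 of 28 cycling keratinocytes had an *Odam* UMI, with 136 of the 145 UMIs in 1 cell, and 0 of 8 suprabasal cells did, too few to tell them from the members. A UMI of it was also found in 3 of 87 endothelial cells, 13 of 386 neutrophils and 10 of 361 other cells of LIP, with at most 2 UMIs in a cell, and 6 of the 20 *Odam*-bearing members likewise had a single UMI. In control it was found in 0 of 24 suprabasal and 0 of 79 cycling cells. *BC037156* was at 4478 CPM in the LIP cycling cells and 1.11 in the control cycling cells.

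In the list for junctional and simple epithelium 3 of 8 genes were measured, *Odam*, *BC037156* and *Slpi*. All 3 were at least 2-fold higher, against 2.39% of all genes, and *Odam* was measured only through its LIP level. Without the *Odam*-bearing cells 1 was still measured, *BC037156*, and it was higher. Of 30 antimicrobial genes listed 10 were measured, and 7 were at least 2-fold higher and none lower, with a median log2 ratio of 3.79, against 2.39% of all genes and a median of −0.03. Without the *Odam*-bearing cells 3 of 6 measured were higher, against 1.12% of all genes, with a median of 0.90. In the endothelial cells 2 of 6 were higher and 1 lower, against 4.71% and 4.67% of all genes there, with a median of 0.58. The 7 were *S100a9*, *S100a8*, *Wfdc2*, *Slpi*, *Lcn2*, *Pglyrp1* and *Defb3*, and the last 3 were measured only through LIP, so that the count and the median are in part set by the minimum of 50 UMIs. *S100a9* was at 1652 (1586–1718) CPM in LIP and 85.1 (75.8–95.3) in control and *S100a8* at 1067 (1015–1121) and 85.7 (76.3–95.9). *Slpi* was at 546 (509–586) and 13.0 (9.49–17.3) CPM. One LIP cell held 602 of the 804 *Slpi* and 1292 of the 2430 *S100a9* UMIs of the LIP members. One control cell held 63.2% of the *S100a8* UMIs of the control members. The endothelial cells had *S100a9* at 204 CPM in LIP and 74.1 in control, next to 182 and 82.0 CPM in the members without *Odam*. *S100a9* outside the *Odam*-bearing cells was therefore at about its endothelial level, whereas *S100a8* was there at 393 CPM in LIP, against 101 in LIP endothelium. *Lcn2* was below its endothelial level, at 65.2 CPM in LIP members and 192 in LIP endothelium.

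*Wfdc2*, a protease inhibitor of mucosal secretions, behaved differently. It was at 524 (488–562) CPM in LIP and 178 (164–192) in control, was found in 77.3% and 56.3% of members, and was at 3.03 and 4.94 CPM in endothelial cells. No LIP cell held more than 13.5% of its UMIs. Without the *Odam*-bearing cells it was at 359 (325–396) and 150 (138–164) CPM, a log2 ratio of 1.26 (1.07–1.45). It was thus higher in LIP with or without these cells.

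The chemokine and colony factor list had 5 of 9 measured genes at least 2-fold higher, which were *Cxcl5*, *Cxcl3*, *Cxcl1*, *Cxcl16* and *Csf3*, against 2.39% of all genes. All but *Cxcl16* were measured only through LIP, so that this count is largely set by the minimum of 50 UMIs. Without the *Odam*-bearing cells 0 of 5 measured were higher, and the median was 0.25. *Csf3*, which drives the making of neutrophils, had 93 UMIs in LIP, in 2 cells, and 0 in control, and so was found in too few members to stand among the 12. *Cxcl16* was at 35.3 and 16.9 CPM and was found in 42.4% and 32.6% of members. In the IL-1 family 2 of 4 measured genes were at least 2-fold higher, against 2.39% of all genes. They were the receptor antagonist *Il1rn*, at 152 (132–173) against 25.4 (20.4–31.2) CPM, and *Il1f9* (IL-36 gamma), at 77.5 against 18.9. Outside the *Odam*-bearing cells *Il1rn* was at 17.1 and 20.4 CPM. *Il1b* itself was at 12.2 and 7.05 CPM, far below its level in neutrophils.

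Of 19 measured immediate-early genes, 8 were at least 2-fold higher and none lower, against 2.39% and 1.98% of all genes, with a median of 0.44, and without the *Odam*-bearing cells 6 were higher (1.12% of all genes) and the median was 0.67. *Fos*, a subunit of AP-1, was at 205 (183–230) CPM in LIP and 27.1 (21.9–33.0) in control, a log2 ratio of 2.92 (2.59–3.27). *Dusp1*, which switches off MAP kinases, was at 153 (134–174) and 53.5 (46.2–61.7), and *Jun* at 162 and 67.4 CPM. *Egr1*, *Fosb*, *Ier3*, *Zfp36* and *Junb* were the other 5. Of the *Fos* UMIs in LIP, 34.4% were in 1 cell, which had no *Odam*, and 31.2% of those in control were likewise in 1 cell.

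In the endothelial cells of the same libraries 0 of 22 measured immediate-early genes were at least 2-fold higher and 5 were lower, with a median of −0.69. Some of the others were higher there, such as *Btg1*, at 439 CPM in LIP and 280 in control. Over the 5071 genes measured there, 4.71% were at least 2-fold higher and 4.67% lower, with a median of 0.02. *Fos* was at 347 CPM in LIP and 851 in control endothelium and *Egr1* at 178 and 608.

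Further genes at least 2-fold higher in LIP differed in how much of their UMIs the *Odam*-bearing cells held. *Hif1a*, the oxygen-sensing transcription factor, was at 448 (414–483) and 188 (174–203) CPM, and without the *Odam*-bearing cells at 408 (371–447) and 185 (171–199). *Icam1*, a ligand for leukocyte integrins that was measured only through LIP, was at 28.5 (20.6–38.6) and 5.35 (3.22–8.36) CPM. *Slc7a11*, the cystine transporter, was at 124 (107–144) and 28.7 (23.4–34.9). The *Odam*-bearing cells held 7.14% of the *Icam1* UMIs in LIP but 61.7% of those of *Slc7a11*, which was at 63.0 and 18.4 CPM without them. *Cebpd*, also measured only through LIP, was at 29.2 and 7.33 CPM, with 159 and 286 CPM in endothelial cells. *Ly6a* was at 875 (828–924) and 339 (320–359) CPM, but at 405 and 320 without the *Odam*-bearing cells, so that most of its difference went with them.

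Regulators of the stress and cytokine responses showed the same division. Of 20 measured oxidative stress genes 4 were at least 2-fold higher and none lower, against 2.39% and 1.98% of all genes, and without the *Odam*-bearing cells 1 was higher. *Gclc*, of glutathione synthesis, was at 103 and 49.0 CPM and *Akr1b8*, an aldo-keto reductase, at 86.3 and 20.01, but without the *Odam*-bearing cells the log2 ratios were 0.35 and 0.96. Of 14 heat shock genes 1 was past 2-fold, against 4.37% of all genes either way. It was *Hspa5*, the chaperone of the endoplasmic reticulum, at 371 (341–404) and 155 (143–169) CPM, and its log2 ratio was 0.68 without the *Odam*-bearing cells.

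Of 24 measured genes of cytokine receptors and their signalling, *Nfkbiz*, *Ifngr1* and *Socs3* were higher and *Il20rb* and *Lifr* lower, against the same shares of all genes, and *Lifr* was measured only through control. *Nfkbiz*, a nuclear IkB protein, was at 76.1 (62.7–91.6) and 32.7 (27.0–39.2) CPM, and *Il20rb*, a receptor chain for IL-20 family cytokines, at 13.6 (8.30–21.0) and 35.2 (29.3–42.0). Without the *Odam*-bearing cells none of the list was past 2-fold higher and 2 were lower. *Slc1a3*, a glutamate transporter linked to proliferating basal progenitors, was at 108 (91.9–126) and 45.4 (38.6–52.9) CPM and was at 79.2 and 37.4 without these cells, which held 44.7% of its LIP UMIs. *Pdpn* (podoplanin), of basal cells in wounds, was at 34.7 (25.8–45.6) and 13.5 (9.97–17.9) CPM and found in 33.3% and 23.7% of members. Of the 185 genes higher in LIP, 108 were still measured without the *Odam*-bearing cells and 52 were still at least 2-fold higher.

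Of 20 measured genes of hemidesmosomes and basement membrane adhesion, 1 was at least 2-fold higher and none lower, which is near the 4.37% of all genes past 2-fold either way, and the median was 0.09. *Lama3*, a chain of laminin 332, was the one, at 124 (106–143) and 48.2 (41.2–56.0) CPM, and 44.0% of its LIP UMIs were in 1 cell. The log2 ratio of *Col17a1* was 0.03 (−0.07 to 0.13), that of *Itga6* 0.35 (0.20–0.50) and that of *Itgb4* 0.22 (0.05–0.39). Of 23 genes of desmosomes and junctions, 1 was at least 2-fold higher and 1 lower, against 2.39% and 1.98% of all genes, so that these counts say little. The higher one was *Cldn4*, measured only through LIP. The lower one was *Dsg1a*, a desmosomal cadherin of the upper layers, at 70.7 (57.8–85.6) against 234 (218–250) CPM.

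Oxidative phosphorylation (80 genes measured), ribosomal proteins (95), Notch (8), TGF-beta and BMP (13) and MHC class I (9) had no gene past 2-fold in either direction, with medians of 0.00, −0.15, −0.11, 0.08 and 0.24. At 4.37% of all genes past 2-fold, a count of 0 says little for the 3 short lists. The stress keratins, likewise a short list, had 1 of 4 past 2-fold, against 4.37% of all genes. It was *Krt6b*, at 1001 (951–1054) against 271 (254–288) CPM. *Krt6a*, the most abundant of them, was at 2600 and 3068 CPM. Outside the *Odam*-bearing cells the order turned for *Krt6b*, which was at 184 CPM in LIP and 257 in control, and *Krt16* was there at 124 and 360. Of the 20 measured genes of S phase and of G2 and M, 1 was past 2-fold, which is near the 4.37% of all genes. It was *Lig1*, measured only through control, at 7.48 and 18.6 CPM. The rule left out cells with more than 1 UMI of *Mki67* and *Top2a* in both libraries, so these lists do not compare dividing cells.

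**Figure D4:**
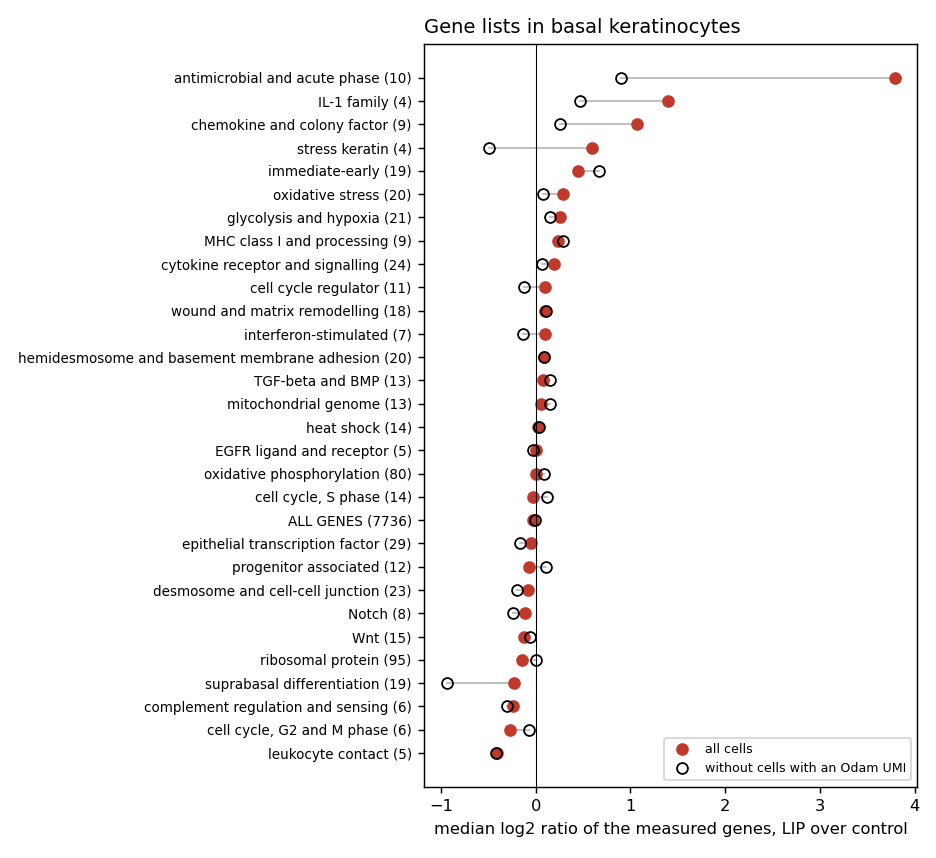
Median log2 ratio, LIP over control, of the measured genes of each list with at least 4 of them (number in brackets) in all basal keratinocytes (filled) and without the cells with an *Odam* UMI (open), where fewer genes of some lists remain. The antimicrobial median is 3.79 with and 0.90 without these cells, the suprabasal differentiation median −0.23 and −0.94, and the immediate-early median 0.44 and 0.67.

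For the 153 genes lower in LIP, the median share of control UMIs in the highest cell was 7.23%, among 135 cells, and for the 185 higher genes that of LIP UMIs was 25.7%, among 66 cells. Over all genes measured it was 4.55% in control and 9.76% in LIP. The 12 with the lowest ratio were *Igkc*, *Krt4*, *Sptssb*, *H19*, *Gm94*, *Slc16a11*, *Paqr5*, *Krt80*, *Pax9*, *Ces1d*, *Krt13* and *Asprv1*. No control cell held 50% of the UMIs of any of them, and 10 of the 12 were found in over 20% of control members. *Igkc*, the constant region of the immunoglobulin kappa chain, is a product of plasma cells. It was at 57.5 CPM in control members, at 93.9 in control endothelial cells and at 111 in control neutrophils, and at 0.680, 0 and 0 in LIP. It was therefore present at a like level in control cells that do not make it.

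*Krt13* (ENSMUSG00000044041) and *Krt4* (ENSMUSG00000059668), the keratin pair of the suprabasal mucosa, belonged to the rule. *Krt13* was at 265 (239–293) CPM in LIP and 1585 (1544–1627) in control and was found in 33.3% and 64.4% of members. *Krt4* was at 6.80 (3.26–12.5) and 152 (139–165) CPM and was found in 2 of 66 and 31 of 135. *Krtdap* and *Sbsn*, also of the rule, were lower in LIP, at 112 against 437 and 62.5 against 151 CPM, and *Krt76* was at 1304 against 1774. These values belong to what chose the members and are given as a description, and 59 of 66 LIP and 86 of 135 control members had at least 90% of the keratin UMIs of the rule in the basal genes.

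Differentiation genes outside the rule were divided. Of 19 measured, 4 were at least 2-fold higher in LIP (*Sprr1a*, *Crct1*, *Mal*, *Tgm1*, all measured only through LIP) and 6 lower (*Ly6d*, *Krt10*, *Tgm3*, *Krt80*, *Krt1*, *Endou*, the last 3 measured only through control), against 2.39% and 1.98% of all genes, with a median of −0.23. Of 15 measured without the *Odam*-bearing cells, 0 were higher and 7 lower, against 1.12% and 2.60%. *Ly6d* was at 570 (532–609) CPM in LIP and 1360 (1322–1399) in control, and 50.8% of its LIP UMIs were in 1 cell. *Tgm3*, a transglutaminase of the cornified envelope, was at 19.7 (13.2–28.3) and 95.8 (85.9–107). *Krt10* was at 70.7 and 229 CPM, but 1 control cell held 73.0% of its UMIs there. *Mt4* was at 640 (599–682) CPM in LIP and 3568 (3506–3631) in control and was found in 40.9% and 80.0% of members, and no control cell held more than 15.7% of it. After thinning to 2000 UMIs, *Mt4* was found in 22.8% of LIP and 57.5% of control members, against 1.25% and 1.69% of endothelial cells, and *Krt13* in 7.02% and 41.7% against the same endothelial shares.

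Some of the genes lower in LIP lay together in control cells with *H19*, an imprinted long non-coding RNA, a group that was also set after the values had been seen. *H19* (ENSMUSG00000000031, chr7:142575529-142578143) had 523 UMIs in control and 25 in LIP, at 147 (135–161) and 17.0 (11–25.1) CPM. It was found in 35 of 135 control members (25.9%, 18.8–34.2) and 7 of 66 LIP members (10.6%, 4.37–20.6). The 35 cells held 31.2% of the UMIs of the control members and had a median of 31382 UMIs, against 26182 in the others. They held 73.1% of the UMIs of *Pax9*, a transcription factor of oral epithelium, 72.9% of *Paqr5*, 76.4% of *Krt4*, 58.0% of *Krt13*, 62.0% of *Asprv1*, 63.3% of *Mt3* and 91.5% of *Wnt16*. Over all 153 genes lower in LIP, the median share of control UMIs in the cells with *H19* was 30.6%, near these cells' 31.2% of all UMIs. At least 50% lay there for 22 of the 153, against 97 of all 7736 genes.

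Other lower genes did not go with *H19*. The same 35 cells held 10.1% of the *Gm94* UMIs, 8.33% of *Krt80*, 18.3% of *Ly6d* and 7.95% of *Dsg1a*. *Gm94* was at 382 (362–403) CPM in control and 49.6 (38.9–62.4) in LIP and was found in 48.9% and 12.1% of members, or 28.3% and 1.75% after thinning. *Krt15* was found in 32 of the 35 cells with *H19* and 62 of the 100 without. One control cell and no LIP cell had both *H19* and *Odam*.

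**Figure D5:**
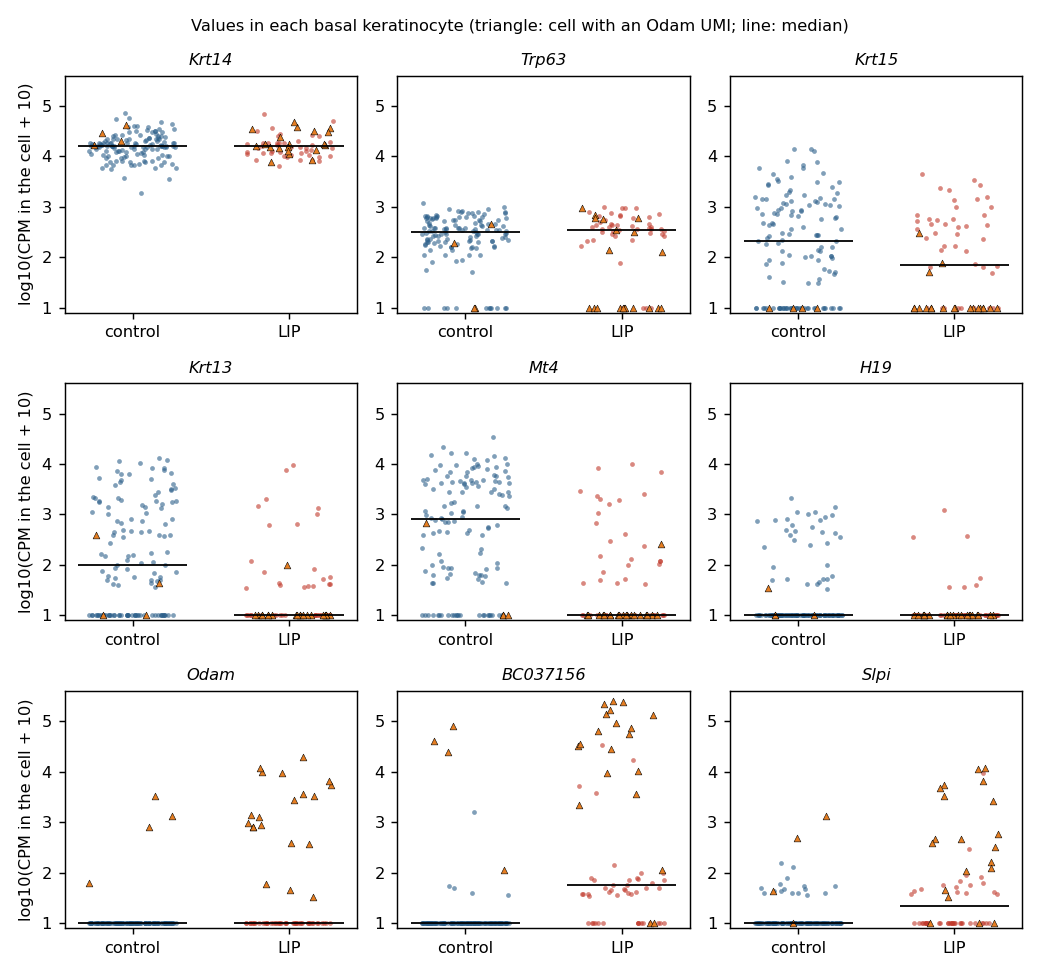
Each point is 1 basal keratinocyte, with log10 of its CPM plus 10 on the y axis and the 135 control and 66 LIP cells side by side. Triangles are cells with an *Odam* UMI and lines are medians, and *Krt14* is present in every cell while *Krt15*, *Krt13* and *Mt4* are mostly at 0 in the LIP cells with *Odam*.

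Of 7 measured interferon-stimulated genes, none was at least 2-fold higher and 2 were lower, against 1.98% of all genes, and the median was 0.09. Of the 2, *Isg15* was measured only through control. *Ifi27l2a* was at 37.4 (28.2–48.7) CPM in LIP and 199 (184–214) in control, and in endothelial cells it was at 33.3 and 354. *Isg15* was at 4.76 and 21.1 CPM, with 84.0% of its control UMIs in 1 cell. The MHC class I gene *H2-D1* was at 307 (280–337) and 203 (189–219) CPM. Of the 12 RANKL and TNF superfamily genes listed, 3 were measured, and *Tnfrsf12a* and *Tnfrsf19* had the most UMIs. None of the 3 was past 2-fold, which says little at 4.37% of all genes past 2-fold either way.

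Against the suprabasal keratinocytes, the members showed the adhesion programme of the basal layer in both libraries. The suprabasal class held 24 control cells with 616292 UMIs and 8 LIP cells with 85990, of which 1 had 48966, so the LIP side is coarse. Of 3586 genes with at least 50 UMIs in each library outside the rule, 17.0% were at least 2-fold higher in basal cells in LIP and 6.86% in control, and 6.58% and 1.28% were lower. Of 14 hemidesmosome and basement membrane genes, 9 were higher in LIP and 11 in control, with none lower. *Col17a1* was at 808 against 186 CPM in LIP and 791 against 180 in control, log2 ratios of 2.12 (1.41–2.93) and 2.13 (1.86–2.42). *BC037156* had the highest mean ratio of all genes compared, and *Krt17*, *Wfdc2*, *Sparc*, *Fst*, *Dcn*, *Cdo1* and *Pappa* were also among the 10 highest. *Mt4*, *Tgm3*, *Selenbp1*, *Adh7* and *Cryba2* were among the lowest. In the LIP suprabasal cells *Wfdc2*, *Sparc*, *Fst* and *Cdo1* had 0 UMIs and *Krt17* had 1. Their LIP ratios therefore rest on the 3 counts put in place of 0 or on 1 UMI. *Sparc* and *Dcn* also belong to the fibroblast and bone list. *Mt4* was at 10419 CPM in control and 12920 in LIP suprabasal cells, so that its lower level in LIP, a log2 ratio of −2.48 (−2.58 to −2.38), was seen in the basal cells and not in the 8 suprabasal ones.

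Markers of other cell types differed in level between lists. Those of endothelium summed to 8.84 CPM in LIP and 5.35 in control members, against 7108 and 6835 in the endothelial cells. The 10 neutrophil markers summed to 2777 and 214 CPM, against 367 and 155 in the endothelial cells. *S100a9* was the most abundant of them in LIP and *S100a8* in control, none was at 0 in either library, and without *Odam*-bearing cells the sums were 625 and 212. At least 1% of UMIs in any of the marker lists was found in 10 LIP members, 8 of them with *Odam*, and in 1 control member, and in none of them once *S100a8* and *S100a9* were left out. The fibroblast and bone list summed to 1033 and 732 CPM, and *Dcn* was its most abundant gene in both libraries. Whether RNA of other cells added to these values was not tested. *Xist* had 1 UMI in each library, and *Ddx3y* of the Y chromosome was at 35.3 CPM in LIP and 55.2 in control, so that cells of male mice were present in both.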

How the data were processed

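Per the labels, each condition is 1 10x Genomics 3′ v3 library. Reads were aligned by the authors to mm10, and the deposited matrices hold whole-number UMI counts for each gene in each barcode, written by Cell Ranger 3.1.0 per their headers and not normalized. Kept cells had 200 to 7500 genes, at most 60000 UMIs and at most 10% mitochondrial UMIs (936 of 1212 LIP and 883 of 1169 control barcodes, from 14236327 and 16472915 UMIs in all). No doublet caller was run. Endothelial cells had under 1% of UMIs in the 8 keratinocyte genes and at least 0.2% in endothelial markers, and neutrophils at least 1% in neutrophil markers.

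UMIs were summed over the members. CPM carry exact Poisson, ratios exact conditional and shares exact binomial (Clopper-Pearson) intervals at 95%. A sum of 0 was replaced by 3 counts over the group, in list medians too. No p-value is given. Genes were named if they belonged to the rule, were among the 12 highest or lowest ratios (found in at least 10% of members of the higher library, mitochondrial genes left out), the 15 most abundant, the 10 highest or lowest basal over suprabasal ratios, or the 4 leading genes of a list past 2-fold (2 if none). Sex genes were named too. *Anxa1*, *Krt16*, *Barx2*, *Mt3* and *Wnt16* among the cells with *Odam* or *H19* were chosen after their values were seen. So were *Col17a1*, *Itga6*, *Itgb4*, *Il1b*, *Csf3r*, *Retnlg*, *Ptprc* and members of lists beyond the 4 leading ones. The members and lists were chosen with earlier results of these data known. *Fdcsp* was matched to *BC037156* by its RefSeq synonym. Alternatives were other scalings, gene minimums, thinning to 2000 UMIs, other cell limits, and leaving out cells. The ratio, its interval and the thinning were tested on simulated data. Python 3.11.15, numpy 2.4.6, scipy 1.17.1, pandas 2.3.3, matplotlib 3.10.9, R 4.3.3 and edgeR 4.0.16 (TMM factors only) were used. Gene positions come from GENCODE vM21 on GRCm38.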

Additional observations from a re-analysis of the deposited data

Results flagged for a closer look

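A signal appeared in barcodes that the comparisons did not use, because they exceeded the limit of 60000 UMIs per cell. Of these, 5 LIP barcodes and 1 control barcode otherwise met the rule for basal keratinocytes. *Odam* was found in 4 of the 5 LIP barcodes, with 2280 UMIs, 1658 of them in 1 barcode, and its level was 4918 CPM, against 884 CPM in the LIP members. *BC037156* was at 74206 CPM in them. The control barcode had no UMI of either gene. Whether these barcodes hold 1 cell or several was not tested.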

How the results depend on the processing

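No paired analysis was possible because each condition has 1 library. The counts of 185 genes at least 2-fold higher and 153 lower in LIP stayed within 1.5 times under TMM, median-of-ratios scaling, a total without mitochondrial, ribosomal protein and keratin genes (which moved the median log2 ratio from −0.03 to −0.11), a keratin minimum of 2%, basal over 2 times suprabasal genes, no *Mki67* or *Top2a* UMI, and leaving out the cells with 1% of UMIs in other types' markers or, chosen after seeing the data, with *H19*. With every cell weighing the same, 461 were lower, the median was −0.19 and the higher genes were 35.8% of those past 2-fold, against 54.7%. Thinned to 2000 UMIs, 29 were higher and 36 lower of 816 genes. A minimum of 20 UMIs gave 374 and 368 and a minimum of 1 gave 2990 and 747. A mitochondrial limit of 5% gave 299 lower. Without the 3 highest cells of each gene, 105 were higher and 523 lower. Without the cells with an *Odam* UMI 83 were higher, and without the 2 LIP cells with the most *Odam* UMIs 122, both chosen after seeing the data. Of the 185 and 153 genes, 52 and 111 kept their side of 2-fold without the *Odam*-bearing cells. After thinning, *Slc16a11* (0.42) and *Krt80* (0.16) had no UMI in LIP and *Sptssb* (1.16) had none in either library. Without the cells that carry it *H19* (0.91) had none in either library. These 4 signs come from the 3 counts put in place of 0 and show no change of direction. Likewise *Odam* had no UMI in either library without its cells, and of the 12 higher genes only 2 had 50 UMIs left there. Of the 24 named ratios, thinning moved 17, leaving out the 3 highest cells 15, the *Odam*-bearing cells 14, the 2 cells with the most *Odam* 9, equal weights 10 and the cells with other types' markers 8, which took *Sprr2d* from 11.31 to 6.80 and *AA467197* from 7.38 to 3.56. A keratin minimum of 2% moved 12, that of *Cxcl3* from 8.29 to 4.74, and the members were 4.17% of kept cells in LIP and 12.1% in control. On summed UMIs, 368 genes were on average at least 2-fold higher and 72 lower in basal than in suprabasal cells, in the same direction in both libraries. With every cell weighing the same, 1386 were higher and 181 lower. Thinned to 1000 UMIs, *Krt15* was found in 21.0% of LIP and 34.8% of control members and *Krt13* in 11.3% and 32.6%. The cause of these changes was not tested. With 66 and 135 cells of 1 library each, the spread between animals is not known.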
